A study of Drosophila melanogaster with 32 samples.

Results

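Peaks of open chromatin that were called in testes of every condition of the series were examined here. They were chosen by the deposited peak lists themselves: a peak of the bam list was kept when it overlapped, by 1 bp or more, a peak in each of the other 5 lists. Of 30062 bam peaks, 19924 met this rule (66.3%), and they are called shared peaks below. Because presence in the lists chose them, their fold enrichment and their presence are described and not tested.

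The series measured testes of Drosophila melanogaster by ATAC-seq, RNA-seq and CAGE in 32 samples. The aly and topi groups were homozygous mutants of the genes aly and topi, grown at 25 C for 10 days without heat shock. The 48h and 72h groups were bam -/- flies that carried Bam under a heat shock promoter. Growth at 22 C lasted 9 days, a heat shock of 30 min at 37 C followed, and testes were taken after a further 48 h or 72 h at 25 C. The labels give 48h as young and 72h, aly and topi as mature spermatocyte stages. A heat shock control, used in ATAC-seq alone, is labelled bam -/- with no transgene named and was grown, shocked and kept like the 48h group. The bam group was bam -/- grown at 22 C for 12 days without heat shock, and both this group and the control are labelled as enriched for spermatogonia. All groups except aly and topi thus carry the bam mutation, and genotype, temperature, heat shock and days of growth differ together between groups. Testes came from males under 2 days old for RNA-seq and under 1 day old for ATAC-seq. ATAC-seq was given as 1 peak list and 1 nucleosome map per condition, from 2 samples each of bam and the control, 3 each of 48h and 72h, 6 of aly and 4 of topi. The aly and topi samples include technical repeats of 3 and 2 replicates. RNA-seq was made on 2 libraries each of aly, bam, 48h and 72h, from 100 pairs of testes per replicate, and whole testes hold somatic cells beside the germ line. The 4 CAGE samples were not used here.

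ATAC-seq inserts sequencing adapters where DNA is free of nucleosomes, so its peaks mark promoters, enhancers and sites bound by insulator proteins. In fly spermatogenesis, Bam ends the mitotic divisions of spermatogonia. Germ cells then enter a long spermatocyte stage, in which the testis meiotic arrest complex (tMAC, which includes Aly and Topi) and testis-specific TBP-associated factors (testis TAFs) switch on genes for sperm differentiation. Promoters of housekeeping genes, such as those for ribosomal proteins, are known to be accessible in most cell types.

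The number of lists that held a bam peak was uneven. Only 1194 bam peaks (3.97%) were in none of the other lists, 1456 were in 1, 1553 in 2, 2317 in 3 and 3618 in 4. Among the 3618 bam peaks that missed a single list, 1684 (46.5%) missed aly, 1042 missed the heat shock control, 541 missed topi, 269 missed 72h and 82 missed 48h. The aly list was the shortest of the 6, with 29559 peaks, and the control list had 31173. The 72h, 48h and topi lists were longer, with 35547, 36412 and 38078 peaks. The shortest of the other lists, aly and the control, were thus missed most often. The longest, topi, was missed more often than 48h and 72h. The part of list length in these counts was not tested. Seen from each list, the peaks that touched a shared peak were 66.3% of the bam list, 63.6% of the control list, 50.4% of 48h, 53.1% of 72h, 66.1% of aly and 52.6% of topi.

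**Figure D1:**
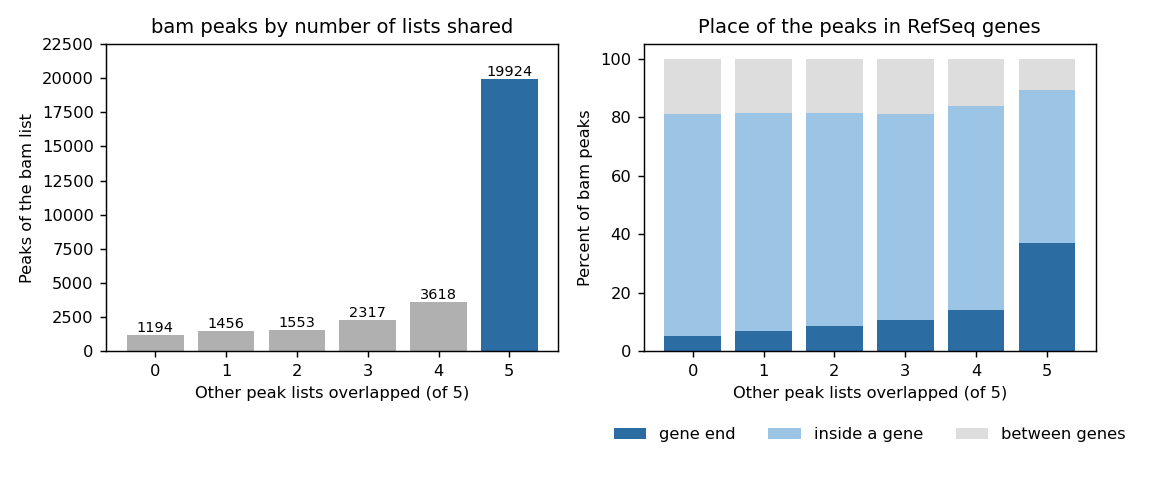
Left: number of bam peaks (y axis) by the number of other peak lists they overlapped (x axis, 0 to 5), with the 19924 shared peaks in blue. Right: percent of the bam peaks in each of these classes that lay at a gene end, inside a gene or between genes, with 36.9% of shared peaks and 5.11% of the peaks in no other list at a gene end.

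Shared peaks were the stronger and wider part of the bam list. Their median width was 245 bp and their median fold enrichment at the summit, as the authors' peak caller gave it, was 3.79, against 139 bp and 2.22 in the other bam peaks. Of the tenth of bam peaks with the highest fold, 99.8% were shared, and of the tenth with the lowest fold 17.8% were. Shared peaks covered 6.19 Mb, or 78.8% of all bases under bam peaks. Within each of the other 5 lists, the peaks that touched a shared peak also had the higher median fold, from 3.77 to 4.09, against 2.05 to 2.36 in the rest of those lists.

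Overlaps at the edge of the rule were few. The overlap with the least-overlapping list was 194 bp at the median, 100 bp or more in 19121 shared peaks, and under 10 bp in 11. Just inside the rule lay bam peaks of 127 bp in Svil and of 100 bp in Nepl16, which overlapped 1 list by 1 bp and had bam folds of 1.92 and 1.80. Just outside it lay a peak of 282 bp that ended 2 bp from an aly peak and a peak of 232 bp that ended 3 bp from one, with bam folds of 1.94 and 1.88.

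**Figure D2:**
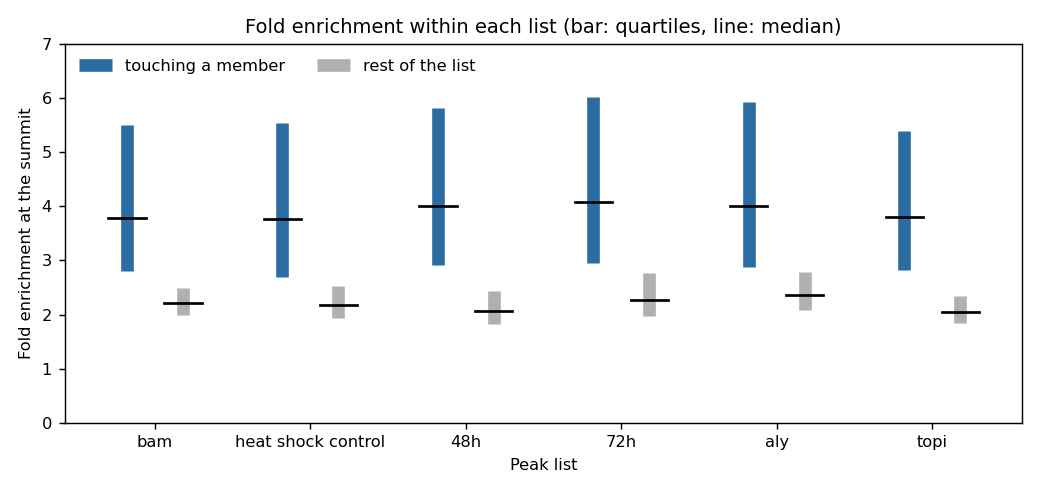
Fold enrichment at the peak summit (y axis) in each of the 6 peak lists (x axis); bars run from the lower to the upper quartile and black lines are medians. In every list the peaks that touched a shared peak (blue, medians 3.77 to 4.09) lay above the rest of that list (grey, medians 2.05 to 2.36), and folds of different lists are not compared.

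On each chromosome arm, the shared peak whose lowest fold over the 6 lists was highest is described here by its fold within each list. On chromosome 2L this was the peak from 21424903 to 21425419 (build dm6), at the ends of copies of the histone H3 and H4 genes, with folds of 33.2 in bam, 37.6 in the control, 20.5 at 48h, 24.4 at 72h, 28.7 in aly and 20.4 in topi. Histone genes lie there in a repeated array, so reads of many copies can fall on this position. On 2R it was the peak from 20903390 to 20903834 at an end of otp, a homeobox gene, with folds of 20.0 to 25.1 over the lists. On 3L it was the peak from 12609279 to 12609839 at an end of caup, an Iroquois homeobox gene, with folds of 21.0 to 26.3. On 3R it was the peak from 16763743 to 16764402 inside the noncoding gene lncRNA:bxd of the bithorax complex, with folds of 23.0 to 32.2.

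The other 3 lay on smaller or sex chromosomes. On chromosome 4 it was the peak from 866573 to 867246 at an end of Gyf, which encodes a GYF-domain protein, with folds of 12.8 to 17.5. On X it was the peak from 22432963 to 22433244, between annotated genes, with folds of 25.0 to 42.1. On Y it was the peak from 124159 to 124472 inside kl-5, a dynein heavy chain gene needed for sperm movement, with folds of 20.4 to 39.3.

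RNA levels differed widely between these genes. otp had 0.287 and 0.215 CPM (counts scaled to library size with edgeR's factors) in aly, 0.188 and 0.172 in bam, 0.207 and 0.187 at 48h and 1.64 and 1.59 at 72h. caup stayed between 0.258 and 1.12 CPM in all 8 libraries, and lncRNA:bxd between 0.0935 and 1.15. These 3 strong shared peaks thus lay at or in genes with next to no RNA in these testes. kl-5 had 46.7 and 45.5 CPM at 72h, against 0.612 and 0.473 CPM in bam, a log2 change of 6.40 (SE 0.12, edgeR adjusted p = 1.6e-29). Gyf had 199 and 200 CPM at 72h, against 438 and 429 CPM in bam, a log2 change of -1.12 (SE 0.024, edgeR adjusted p = 3.24e-28).

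Shared peaks lay at gene ends more often than the other bam peaks. With a window of 100 bp either side of both ends of each RefSeq gene, since the annotation used gives no strand, 7346 shared peaks (36.9%, 95% Wilson interval 36.2 to 37.5) touched an end, against 1049 (10.3%, 9.77 to 11.0) of the 10138 other bam peaks. A further 10410 shared peaks (52.2%) lay inside genes and 2168 (10.9%) between genes, against 71.8% and 17.8% of the other bam peaks. The share at a gene end was 5.11% of the bam peaks found in no other list, 6.87%, 8.50%, 10.7% and 14.1% of those found in 1, 2, 3 and 4 other lists, and 36.9% of those found in all 5. Ends of 2 or more genes were touched by 1730 shared peaks (8.68%) and 158 other bam peaks (1.56%). Which end was a start could not be told, and the intervals cover counting error only.

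Peak strength moved with place. Shared peaks at a gene end had a median bam fold of 4.98, those inside genes 3.24 and those between genes 3.33. Among peaks with a fold of 4 or more, 54.7% of 9182 shared peaks and 23.7% of 131 other bam peaks were at a gene end. Between a fold of 3 and 4 these shares were 31.2% and 22.4%, between 2 and 3 they were 15.2% and 10.4%, and below 2 they were 7.45% and 6.47%. Of the 100 shared peaks whose lowest fold over the lists was highest (11.7 or more), 58 lay at a gene end, 33 inside genes and 9 between genes.

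Shared peaks were a larger part of the bam list on X than on the large autosome arms. On X, 2903 of 3893 bam peaks were shared (74.6%, Wilson interval 73.2 to 75.9), against 16796 of 25807 (65.1%, 64.5 to 65.7) on 2L, 2R, 3L and 3R together. The 4 arms ranged from 63.9% on 3R to 66.2% on 2R, and chromosome 4 had 202 of 322 and Y 23 of 40. bam peaks on X were also stronger, with a median fold of 3.42 against 2.87 on the 4 arms. Within bands of bam fold, the shared part on X and on the arms was 22.5% and 17.2% below a fold of 2, 49.5% and 45.2% from 2 to 3, 83.8% and 88.0% from 3 to 4, and 98.0% and 98.7% from 4 up. The higher share on X was thus seen below a fold of 3 and not above it. By list, the bam peaks of X and of the arms were found in 94.9% and 83.7% of cases at 72h, in 83.1% and 74.3% in aly and in 86.5% and 84.5% in topi. Males have a single X, and its part in these shares was not tested.

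The deposited nucleosome maps, made by condition from the same ATAC-seq libraries and so not a separate assay, placed fewer nucleosomes at the summits of shared peaks than beside them. In the bam map, positions per 100 peaks and 20 bp averaged 3.16 within 50 bp of the summit and reached 15.1 at 130 bp on either side, 4.79 times as many. Around the other bam peaks these values were 4.23 and 11.3, a ratio of 2.68. The ratio for shared peaks was 4.46 in the control map, 4.78 at 48h, 4.26 at 72h, 3.34 in aly and 3.91 in topi, against 2.59, 2.70, 2.61, 1.99 and 2.27 for the other bam peaks. The centre itself was not lower in shared than in other bam peaks in every map: it was 3.62 against 3.52 at 72h and 3.97 against 3.21 in aly, but 3.52 against 3.66 in the control, 3.42 against 3.94 at 48h and 3.66 against 4.38 in topi. These values are per 100 of all peaks, also those with no position within 1000 bp of the summit. Of the 10138 other bam peaks, 8553 (72h) and 7747 (aly) had a position that near. Of the 19924 shared peaks, 19907 and 19858 had one. The part of this coverage in the centre values was not tested. Shared peaks at gene ends had the sharpest pattern, with ratios from 5.74 in aly to 8.55 in the control, against 2.46 to 3.48 for shared peaks inside genes. The maximum of shared peaks lay at 130 bp in all 6 maps.

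Between 57.0% (bam) and 59.0% (aly) of shared peaks held a nucleosome position inside the bam peak, and between 26.7% (bam) and 31.9% (aly) had one within 75 bp of the summit. Of the other bam peaks, which were narrower, 27.9% (aly) to 41.7% (bam) held one inside. Within 75 bp of the summit, 27.4% (aly) to 38.4% (bam) of them had one, and only in the aly map was this share higher in shared peaks. In the aly map, 7747 of the 10138 other bam peaks had any position within 1000 bp of the summit, against 19858 of the 19924 shared peaks. Peaks without any were kept in these shares, and the part of this coverage was not tested. Of shared peaks at gene ends 18.2% to 23.2% had one within 75 bp, and of those inside genes 31.6% to 37.3%. The position nearest to a shared peak's summit had a median occupancy, the authors' fraction between 0 and 1, of 0.773 in bam, 0.778 in the control, 0.744 at 48h, 0.750 at 72h, 0.750 in aly and 0.760 in topi. The maps held 99570 (aly) to 139279 (topi) positions and had a median of 7 to 13 reads per position. With 1 map per condition, these differences between conditions were not tested, and the depth of the maps differs along with the condition.

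**Figure D3:**
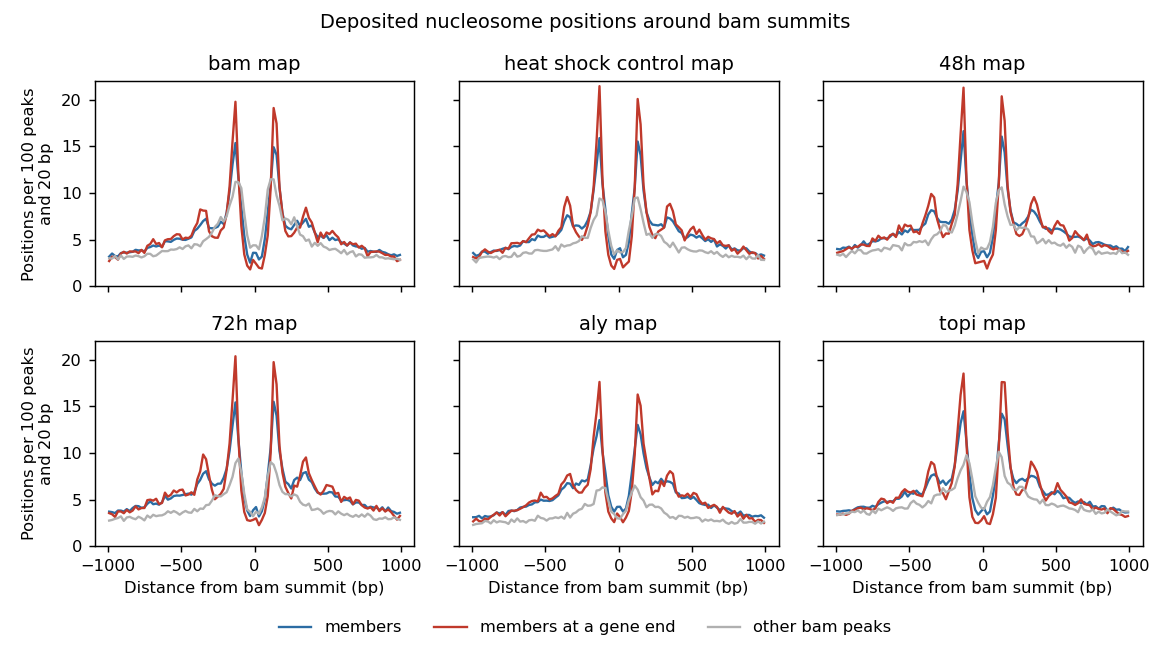
Deposited nucleosome positions per 100 peaks and 20 bp (y axis) by distance from the bam summit in bp (x axis), in the map of each of the 6 conditions, for shared peaks (blue), shared peaks at a gene end (red) and other bam peaks (grey). In each map shared peaks show a low centre with maxima near 130 bp on both sides, 3.34 to 4.79 times the centre, and the maxima are highest at gene ends.

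Of 17189 counted genes that could be placed, 8079 (47.0%) had a shared peak at an end, 6935 at 1 end and 1144 at both. Transcripts of these genes were found in most libraries: 89.6% had counts in all 8 libraries and 90.4% (7301) passed the filter on low counts. Of genes with an end at other bam peaks only, 78.7% passed, of genes with an end at a peak of another list only 83.1%, and of genes with no peak at an end 51.0%. Genes with a shared peak held 61.4% of all RNA-seq counts. RNA-seq libraries held 20064489 to 28984275 counts. Paired libraries differed little beyond counting error (a chi-square test at 0.05 marked 7.31% to 7.69% of genes, and edgeR's common coefficient of variation was 2.11%), and nothing says that they came from separate cultures of flies, so p-values measure this narrow spread.

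At 72h, a larger share of genes with a shared peak was lower than in bam, and a smaller share higher, than over all tested genes. Of the 7301 tested, 4479 (61.3%) were lower at 72h than in bam at an edgeR adjusted p below 0.05 and 2235 (30.6%) were higher, beside 43.6% and 46.1% of all 13495 tested genes. By 2-fold or more, 2828 (38.7%) were lower and 1285 (17.6%) higher, beside 27.9% and 36.7%. The median log2 change was -0.63, against 0.06 over all genes, and 43.4% of genes with a shared peak lay within 2-fold, against 34.2% of all genes. Of the 2714 tested genes whose ends touched a peak of another list but no bam peak, 71.7% were higher by 2-fold or more and 9.76% lower, with a median log2 change of 6.59 (5.79 when genes with 0 counts in a group take the bound that 3 counts in that group would give). Of the 660 tested genes with an end at other bam peaks but no shared peak, 47.1% were lower and 38.3% higher. By 2-fold or more, 29.2% of them were lower and 29.7% higher, and their median log2 change was -0.32. In these whole testes, fewer cells of a type and less RNA per cell cannot be told apart.

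At 48h the same split was seen at a smaller size. Of the 7301 genes, 4017 (55.0%) were lower and 2544 (34.8%) higher than in bam, beside 41.8% and 44.1% of all tested genes, and 2070 (28.4%) were lower and 1043 (14.3%) higher by 2-fold or more, beside 22.7% and 30.2%. Of the 2-fold calls on genes with a shared peak, 33.5% were thus higher, and 44.8% with scaling by library size alone. The median log2 change was -0.34, against 0.06 over all genes. Without bam replicate 1 these medians were -0.12 and 0.27, without 48h replicate 1 -0.11 and 0.27, and without 48h replicate 2 -0.13 and 0.25, so their difference ran from -0.40 to -0.37 in these 3 fits. Genes with an end at other bam peaks but no shared peak had a like median at 48h, of -0.35. Of the 660 tested, 49.1% were lower and 33.5% higher, and 30.5% lower and 23.5% higher by 2-fold or more. The 48h and 72h comparisons share the bam libraries.

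Between aly and 72h the direction was the other way. This comparison shares the 72h libraries with that of 72h against bam, with opposite sign. The directions of these comparisons are therefore not independent. In aly, 3997 genes with a shared peak (54.7%) were higher than at 72h and 2399 (32.9%) lower, beside 42.2% and 45.9% of all tested genes. By 2-fold or more, 1854 (25.4%) were higher and 1171 (16.0%) lower, beside 22.1% and 33.6%, so the share of rises lay near the background and that of falls under it. The median log2 change was 0.29, against -0.07 over all genes. Scaling moved the median of all genes by over 0.1: for 72h against bam it was 0.26 under DESeq2's size factors and -0.07 when only library size was used. Relative to that median, genes with a shared peak lay lower by 0.69 to 0.70 at 72h and by 0.40 at 48h, and higher by 0.36 in aly, under all 3 scalings.

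**Figure D4:**
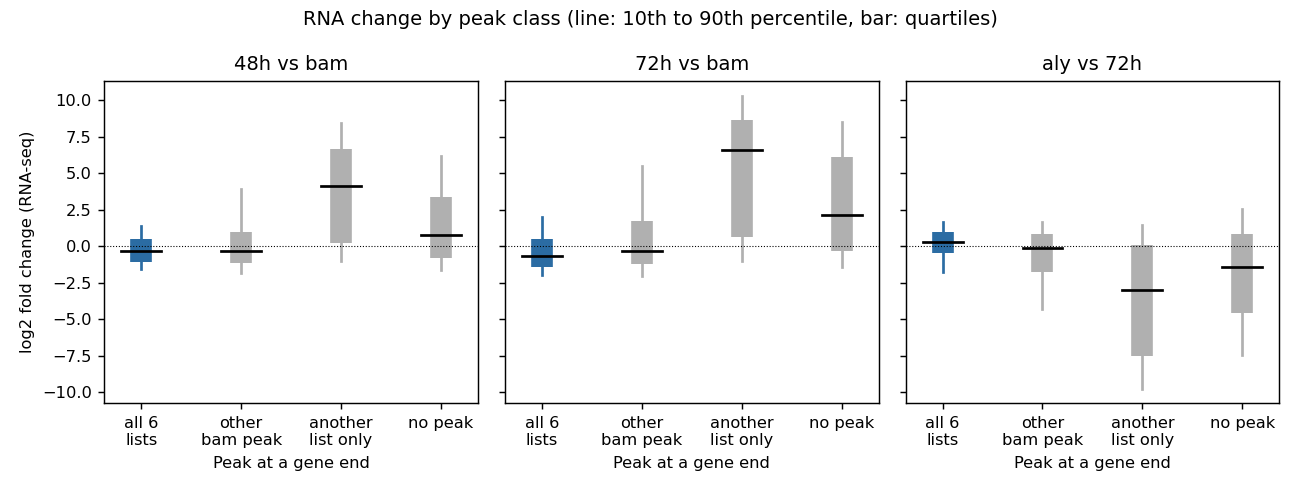
log2 fold change of RNA-seq (y axis) in the 3 comparisons, for tested genes grouped by the peak at their ends (x axis: a shared peak, another bam peak, a peak of another list only, no peak); lines run from the 10th to the 90th percentile, bars between quartiles, and black lines are medians. Genes with a shared peak (blue) have medians of -0.34, -0.63 and 0.29, near 0 beside those of genes with a peak of another list only (4.12, 6.59 and -3.00). Genes with another bam peak have medians of -0.35, -0.32 and -0.13.

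Genes were also divided into 4 near-equal groups by the bam fold of their strongest shared peak at an end. In the group with the lowest folds (under 3.88), 22.7% of 1759 tested genes passed the test with a rise of 2-fold or more at 72h over bam, and 32.8% with such a fall. In the group with the highest folds (6.96 or more), these shares were 14.8% and 42.6% of 1832. On X, where 46.2% of genes had a shared peak at an end, their median log2 change at 72h was -0.92, against -0.42 to -0.66 on 2L, 2R, 3L and 3R. On chromosome 4 it was -0.85 over 63 tested genes. Medians of all tested genes by arm were not computed. Of 81 placed genes on Y, 2 had a shared peak at an end.

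Among gene lists, those for basic cell functions had a shared peak at nearly every gene. It lay at an end of 70 of 74 placed cytosolic ribosomal protein genes (94.6%), 34 of 38 canonical respiratory chain subunits, 26 of 30 translation factors, 20 of 23 DNA replication genes, 27 of 32 canonical proteasome subunits and 19 of 23 general transcription factors, beside 47.0% of all placed genes. Of 14 insulator and promoter-binding proteins, 12 had one. Lists of the testis programme had lower shares, and spermatid differentiation had the lowest, with 1 of 37 genes (2.70%). A shared peak lay at 2 of 14 testis proteasome subunits and at 1 of 5 testis TAFs. Nearer to the 47.0% of all placed genes were 4 of 13 testis mitochondrial paralogs (30.8%) and 3 of 8 tMAC and achi/vis genes (37.5%). Whether lists this small differ from the share of all placed genes was not tested. Of the other 36 spermatid differentiation genes, 33 touched a peak of another list and no bam peak. Of 11 spermatogonial and early germ cell genes 5 had a shared peak, and the other 6, among them bam, nanos and piwi, touched only a bam peak missing from 1 or more lists. Lists of cells other than the germ line had shared peaks too, at 8 of 9 somatic cyst and hub cell genes and 8 of 8 testis sheath muscle genes, and at 11 of 15 heat shock protein genes.

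**Figure D5:**
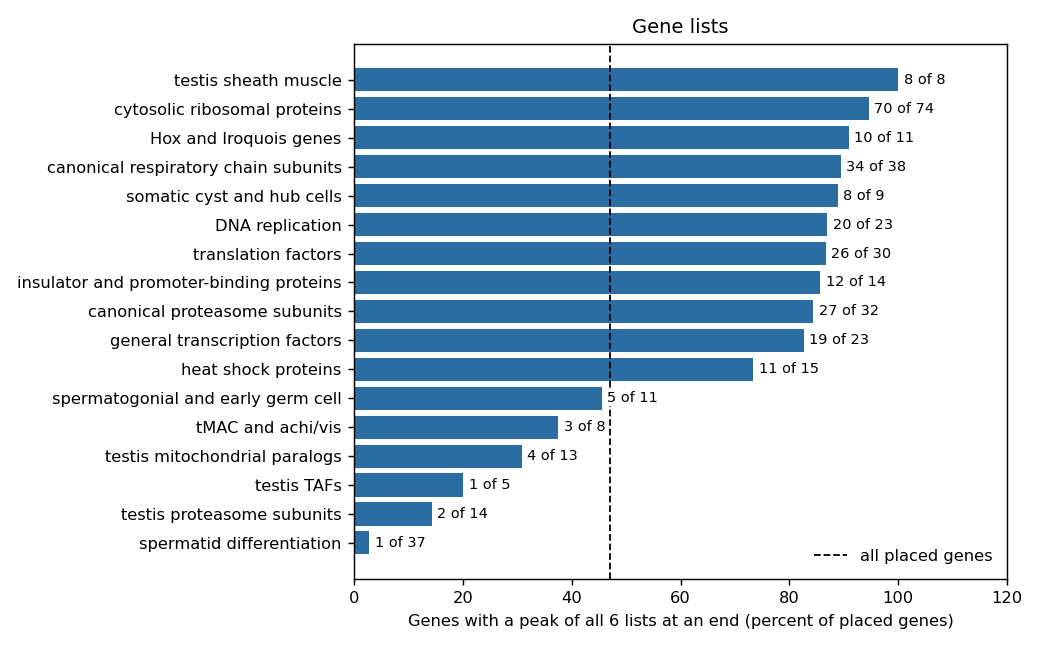
Percent of placed genes of each list (x axis) with a shared peak at an end, with the numbers of genes beside the bars; the dashed line marks all placed genes, 47.0%. Lists of basic cell functions and of somatic and muscle cells lie above 80%, and spermatid differentiation lies lowest, at 1 of 37; the Hox and Iroquois list was chosen after peak values were seen.

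Transcripts of most ribosomal protein genes with a shared peak fell at 72h. Of these 70 genes, 69 were lower and 1 higher at 72h than in bam, 59 and 0 of them by 2-fold or more, with a median log2 change of -1.41. Over all tested genes, 43.6% were lower and 46.1% higher at 72h, 27.9% and 36.7% by 2-fold or more, and the counts of the other lists below stand beside the same background. RpL5, of the large subunit, had 667 and 648 CPM at 72h, against 2273 and 2281 CPM in bam, 3.46-fold lower. RpL3, another large subunit protein, had 439 and 435 CPM at 72h, against 1569 and 1585 CPM in bam. Neither gene's groups overlapped (edgeR adjusted p = 1.06e-36 for RpL5 and 1.25e-36 for RpL3). Of 26 translation factors 25 were lower and 0 higher at 72h (background 43.6% and 46.1%), 11 of them by 2-fold or more. eEF1gamma, a part of elongation factor 1, had 324 and 331 CPM at 72h, against 1620 and 1657 CPM in bam.

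DNA replication genes with a shared peak fell as well. At 72h, 19 of 20 were lower than in bam and 1 higher, 16 and 1 by 2-fold or more (background 27.9% and 36.7%), with a median log2 change of -1.88. Mcm7, a subunit of the replicative helicase, had 33.8 and 34.7 CPM at 72h, against 210 and 213 CPM in bam (6.18-fold lower, edgeR adjusted p = 1.18e-32), and an antisense gene lies at the same peak. RnrL, the large subunit of ribonucleotide reductase, had 40.8 and 38.5 CPM at 72h, against 231 and 234 CPM in bam. Claspin, an adaptor of the replication checkpoint, had 10.3 and 9.74 CPM at 72h, against 106 and 110 CPM in bam. Caf1-180, of the chromatin assembly factor that follows replication, had 14.6 and 16.1 CPM at 72h, against 158 and 162 CPM in bam. These last 2 and the zinc finger gene klu (10.9 and 12.1 CPM at 72h, against 115 and 118 CPM in bam) were among the 5 largest falls of genes with a shared peak, 10.8-, 10.4- and 10.1-fold lower.

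The largest 2 of these falls were at copies of the inducible Hsp70 gene. Hsp70Ba had 3.59 and 3.60 CPM at 72h, against 59.5 and 68.0 CPM in bam. Hsp70Ab had 26.59 and 26.02 CPM at 72h, against 376 and 388 CPM in bam. The Hsp70 copies are nearly identical and reads may be split among them, so each value is uncertain. Of 11 heat shock protein genes with a shared peak 10 were lower and 1 higher at 72h than in bam, 8 and 0 by 2-fold or more (background 27.9% and 36.7%). The 72h flies had been shocked 72 h before testes were taken, and the bam flies had not. Genotype and growth differ along with the shock, and its part in these changes was not tested. Hsp27, a small heat shock protein gene, had 195 and 198 CPM at 72h, against 1119 and 1136 CPM in bam.

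Proteasome and respiratory chain genes with a shared peak moved in both directions. Of 27 canonical proteasome subunits with a shared peak, 14 were lower and 11 higher at 72h than in bam, beside a background of 43.6% and 46.1%. By 2-fold or more 4 were lower and 0 higher, shares under the background of 27.9% and 36.7%. The median log2 change of the list was -0.08. Rpt3, an ATPase of the regulatory particle and one of those 4, had 56.8 and 56.5 CPM at 72h, against 236 and 245 CPM in bam. Of 34 respiratory chain subunits 24 were lower and 10 higher, 13 and 0 by 2-fold or more (background 27.9% and 36.7%). blw, the alpha subunit of ATP synthase, had 196 and 202 CPM at 72h, against 510 and 518 CPM in bam.

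Genes for promoter-binding and insulator proteins, whose products bind sites of open chromatin, were higher in aly than at 72h. All 12 with a shared peak passed the test, 7 of them by 2-fold or more, beside 42.2% and 22.1% of all tested genes. M1BP, which binds a core promoter motif and was named after its values were seen, had 634 and 640 CPM in aly, against 79.4 and 80.2 CPM at 72h, a log2 change of 3.00 (SE 0.026, edgeR adjusted p = 6.98e-39). CTCF, an insulator protein also named after its values were seen, had 161 and 161 CPM in aly, against 38.8 and 37.6 CPM at 72h. Against bam, in a comparison that shares the 72h libraries, 9 of the 12 were lower at 72h and 3 higher. Cp190, a partner of insulator proteins, had 93.2 and 91.5 CPM at 72h, against 410 and 412 CPM in bam, and pzg, a zinc finger protein of chromatin, 45.7 and 49.9 CPM at 72h, against 313 and 321 CPM in bam.

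General transcription factors with a shared peak were also mostly higher in aly. Of 19, 16 were higher and 2 lower in aly than at 72h, 10 and 1 by 2-fold or more (background 22.1% and 33.6%), with a median log2 change of 1.40. Against bam, 15 of the 19 were lower at 72h and 4 higher, 6 and 3 by 2-fold or more. Their median log2 change was -0.58, and both comparisons use the same 72h libraries. Taf1, the largest subunit of TFIID, which was named after its values were seen, had 544 and 554 CPM in aly, against 108 and 108 CPM at 72h. TfIIA-S, the small subunit of TFIIA, had 57.5 and 56.6 CPM at 72h, against 152 and 153 CPM in bam (2.67-fold lower, edgeR adjusted p = 9.99e-28). TfIIB, which bridges TBP and RNA polymerase II, was one of the 4 that were higher, with 262 and 260 CPM at 72h, against 94.2 and 97.6 CPM in bam (2.72-fold, edgeR adjusted p = 4.43e-30).

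A minority of genes with a shared peak rose steeply at 72h. The 5 largest rises at 72h were mfr, a ferlin gene needed in sperm, and CG11698, CG42592, CG14840 and CG31909. mfr had 70.0 and 79.3 CPM at 72h, against 0 counts in both bam libraries, at least 1111-fold higher (floor of 3 counts over the group). Its peak, from 8912350 to 8912828 on 3L, had a bam fold of 5.37 and is shared with Tsp66E. CG11698 had 72.2 and 72.5 CPM at 72h, against 0 counts in bam, at least 1073-fold higher, and CG42592 40.0 and 39.0 CPM, against 0 counts, at least 585-fold higher. CG14840 had 133 and 135 CPM at 72h, against 1 count over the bam libraries, 5965-fold higher (95% counting interval 1071 to 235611). CG31909 had 574 and 577 CPM at 72h, against 0.0942 and 0.172 CPM in bam, 4323-fold higher. All 5 had a peak called at an end in bam, where their transcripts were at or near 0 counts. The peak of CG11698 also touches CG7483 and that of CG14840 touches MetRS-m, so 3 of these 5 peaks lie at an end of another gene too, and those of CG42592 and CG31909 touch no other gene.

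At 48h, mfr was again the largest rise, with 37.8 and 44.0 CPM, at least 609-fold above bam. Optix, a homeobox gene known from the eye, had 15.6 and 14.3 CPM at 48h, against 0 counts in bam, at least 222-fold higher. Arp53D, an actin-related protein of the testis, had 190 and 197 CPM at 48h, against 0.141 and 0.0859 CPM in bam, 1705-fold higher. The 3 largest falls at 48h, CG13690, CG14545 and CG4860, were 11.9-, 10.2- and 9.92-fold lower than in bam.

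Of placed genes with 0 counts in both bam libraries, 406 had a shared peak at an end. Of these, 56 passed the filter on low counts through other groups, and 50 of the 56 were higher by 2-fold or more at 72h. Of 2594 placed genes with 0 counts in bam and no shared peak at an end, 724 passed the filter. Of these, 682 were higher by 2-fold or more at 72h. Only genes with counts elsewhere could pass, and from 0 counts in bam only a rise can be called. These numbers are therefore a description, and the 50 are no share of all 406.

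In aly, the largest differences from 72h on both sides were again single genes. CG11333 had 0 counts in aly, against 22.8 and 21.0 CPM at 72h, at least 321-fold lower. CG31093 had 2 counts over the aly libraries, against 185 and 175 CPM at 72h, 3954-fold lower (95% counting interval 1095 to 32652), and CG3473 had 1 count, against 72.0 and 71.1 CPM, 3152-fold lower (566 to 124497). Cad88C, a cadherin gene, had 430 and 424 CPM in aly, against 1.69 and 1.78 CPM at 72h, 246-fold higher. unc80, known as a part of a sodium leak channel complex, was 111-fold higher and scpr-C 106-fold higher in aly. All 6 had a peak at an end in all 6 lists, aly and 72h included.

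Genes of the testis-programme lists with a shared peak were all higher at 72h than in bam (background 46.1%). ocn, known for its expression in the testis, had 665 and 657 CPM at 72h, against 1.32 and 1.07 CPM in bam, 552-fold higher, and shares its peak with ZIPIC. ATPsynbetaL, a testis paralog of the ATP synthase beta subunit, had 262 and 265 CPM at 72h, against 1.18 and 1.20 CPM in bam, 221-fold higher, and shares its peak with IleRS-m. Cyt-c-d, a testis cytochrome c, was 132-fold higher at 72h than in bam and Prosbeta2R2, a testis proteasome subunit, 114-fold higher, both at peaks that touch another gene. All 4 testis mitochondrial paralogs and both testis proteasome subunits with a shared peak were higher by 2-fold or more at 72h (background 36.7%). Taf12L, a testis TAF, had 94.9 and 97.3 CPM at 72h, against 30.7 and 29.2 CPM in bam.

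The genes that define the groups differed in their own peaks. topi shares the peak from 9777899 to 9778183 on 3R with RpS29, a ribosomal protein gene, with folds of 8.54 in bam, 9.80 in the control, 9.02 at 48h, 8.27 at 72h, 7.06 in aly and 7.19 in topi. topi had 165 and 168 CPM at 72h, against 3.67 and 3.91 CPM in bam, while RpS29 had 779 and 779 CPM at 72h, against 1705 and 1714 CPM in bam. One peak of every list thus lay between a gene 44.0-fold higher and a gene whose log2 change was -1.13. topi had 1141 and 1151 CPM in aly, against the 165 and 168 CPM at 72h, a log2 change of 2.78. bam touched a bam peak that was also called in the control, at 48h and at 72h, with folds of 2.58, 3.48, 2.59 and 2.79, and not in aly or topi, so it is not among the shared peaks. No bam peak touched an end of aly, where peaks of other lists were called. Transcripts of bam had 13.7 and 12.1 CPM at 72h, against 94.9 and 98.5 CPM in bam, and 95.8 and 97.4 CPM in aly, and those of aly 98.0 and 96.5 CPM at 72h, against 37.6 and 38.5 CPM in bam, and 72.0 and 69.6 CPM in aly. The bam and 72h flies were bam -/-, those of 72h with a Bam transgene, and the aly flies were aly mutants. Reads of a mutant allele and of the transgene cannot be told apart in these counts.

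Genes that share a peak were compared with each other. A single shared peak touched ends of exactly 2 tested genes in 1313 pairs. At 72h against bam, both genes were higher by 2-fold or more in 57 pairs (4.34%), both lower in 170 (12.9%), they moved apart in 196 (14.9%) and neither changed by 2-fold in 283 (21.6%). Over all 13220 neighbouring tested genes these shares were 18.2%, 9.27%, 16.3% and 14.4%. The share that moved apart thus lay near that of all neighbours, while the share with both higher lay below it. Single genes with a shared peak were also less often higher by 2-fold or more (17.6%, beside 36.7% of all tested genes). They were more often lower (38.7%, beside 27.9%). The part of these rates in the shares of pairs was not tested, nor were the differences. Of 133 pairs that moved apart past 10 CPM, the 5 that moved farthest were singled out after their values were seen. These included CG31406 beside jumu, a forkhead gene, and CG17717 beside Pat1. CG31406 had 308 and 327 CPM at 72h, against 0.236 and 0.043 CPM in bam, and jumu 51.8 and 48.8 CPM at 72h, against 164 and 168 CPM in bam, at a peak with folds of 6.25 to 7.49 over the lists. CG17717 had 147 and 150 CPM at 72h, against 0.33 and 0.129 CPM in bam, and Pat1 25.6 and 26.9 CPM at 72h, against 109 and 105 CPM in bam, at a peak with folds of 7.47 to 11.0.

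Many shared peaks touched a second gene. Of the 293 genes with a shared peak whose log2 change at 72h was 5 or more, 49.8% had no shared peak at an end that did not also touch another gene. This share was 40.9% of all 1285 genes higher by 2-fold or more, 30.0% of the 2828 lower and 33.0% of all 7301 tested. Reads of neighbours and antisense genes at such peaks may not be separable, since the counting's strand setting, not given in the sources used here, is unknown.

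Some genes with a shared peak held their level in every library. ND-B14.7, a subunit of respiratory complex I, had 86.8 and 84.7 CPM in aly, 83.2 and 83.2 in bam, 82.0 and 83.2 at 48h and 81.9 and 83.7 at 72h. bgcn, which encodes the partner of Bam, had 153 and 152 CPM in aly, 145 and 149 in bam, 148 and 145 at 48h and 146 and 150 at 72h. The range over the 8 libraries was 0.084 on the log2 scale for ND-B14.7 and 0.085 for bgcn, the 2 smallest of the genes with a shared peak and 50 CPM or more in every library. pelo, of ribosome rescue, Arpc5, of the Arp2/3 complex, and mats, of Hippo signalling, followed with 0.12, 0.17 and 0.21. These genes were chosen for that range, so their differences between groups are not tested, and the direction of 72h against bam flipped for all 5 under at least 1 other scaling.

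Markers of cells other than the germ line moved with the groups. The 9 somatic cyst and hub cell genes summed to 147 to 149 CPM in aly, 358 to 361 in bam, 207 to 210 at 48h and 165 to 175 at 72h, with none at 0 counts in any group. The 8 muscle genes summed to 692 to 701 CPM in aly, 1727 to 1735 in bam, 759 to 768 at 48h and 817 to 822 at 72h, again with none at 0. At 72h, 7 of the 8 somatic genes with a shared peak were lower than in bam and 1 higher, and 7 of the 8 muscle genes were lower and 0 higher (background 43.6% lower and 46.1% higher). Fas3, an adhesion protein of the hub, had 28.8 and 28.0 CPM at 72h, against 140 and 137 CPM in bam, and Tm1, a tropomyosin, 203 and 202 CPM at 72h, against 537 and 532 CPM in bam. The part of these cells in the shared peaks and in the RNA changes was not tested. Of germ line markers, the 11 spermatogonial genes summed to 935 to 943 CPM at 72h, against 2007 to 2027 CPM in bam. Among genes of spermatocytes, comr of the tMAC and achi/vis list and sa of the testis TAFs were at 0 counts in bam alone. No other gene of these lists was at 0 counts there. In bam the tMAC and achi/vis list summed to 142 to 145 CPM, against 839 to 840 CPM at 72h. Testis TAFs summed to 54.2 to 57.1 CPM in bam, against 490 to 502 CPM at 72h.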

How the data were processed

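The deposited peak lists, per the labels 1 per ATAC-seq condition, give each peak's fold enrichment ratio and -log10 q as the authors called them, and the deposited nucleosome maps give occupancy fractions and read counts; the pooling of replicates and the nucleosome caller are not stated there. The authors deposited raw RNA-seq counts per gene. Per the submitters' processing notes the build was dm6 and the tools included STAR 2.5.1b and 2.5.4b, BWA 0.7.10 and MACS2 2.1.1. Overlaps were computed in Python 3.11.15 and checked against bedtools 2.31.1. Gene ends came from a RefSeq table of the same assembly, matched by symbol: 17252 of 17559 gene identifiers had a symbol and 17189 were placed. edgeR 4.0.16 (filterByExpr, TMM, quasi-likelihood F test, all 8 libraries in 1 fit) tested 13495 genes, with calls where the Benjamini-Hochberg adjusted p was under 0.05. CPM and SE are edgeR's, from 2 libraries per group. The fit was tested on simulated data with known changes.

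The rule for shared peaks and the 16 gene lists were chosen with earlier results of these data known, and a list of Hox and Iroquois genes was added after peak values were seen. Named genes followed a rule: the peak per arm with the highest lowest fold; the 5 (72h) or 3 (48h, aly) largest called rises and falls with a mean of 10 CPM or more and no overlap between libraries; the 2 genes of each list with the smallest p; the 5 steadiest genes; and bam, aly and topi. Of list genes, 14 were not matched. Gene ends stand in for planned gene starts, because the table has no strand. CAGE clusters carry no positions and were not used here. No genome or promoter sequences were at hand, so planned sequences and motif searches were not made.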

Additional observations from a re-analysis of the deposited data

How the results depend on the processing

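The count of 19924 shared peaks was 19662 with an overlap of 50% of the shorter peak, 14639 with a -log10 q of 10 or more in every list, 19924 after merging intervals, and 20006 to 21608 with 1 of the other lists left out. With windows of 250 bp, 46.3% of shared peaks touched a gene end. Within 75 bp of the summit, 26.7% (bam), 28.1% (control), 28.4% (48h), 29.3% (72h), 31.9% (aly) and 29.9% (topi) of shared peaks had a nucleosome position, which is fewer by construction than inside the whole peak. All 12 counts of called genes with a shared peak stayed within 1.5 times under every setting run (DESeq2 size factors, library size, no filter, the DESeq2 test, the 4 libraries compared alone, the replicate block, 250 bp, and, added after seeing the data, the -log10 q minimum). Leaving out 1 library in turn gave 1473 to 2029 genes lower and 1039 to 1335 higher by 2-fold or more at 48h, 2792 to 2844 and 1288 to 1311 at 72h, and 1172 to 1186 and 1822 to 1858 in aly. The share of 48h 2-fold calls that were higher then ran from 33.9% to 47.4%. It was 48.2% with all 8 libraries and no filter on low counts. Both single libraries and the filter thus move the size of that split (the cause was not tested). Without the filter and in the DESeq2 test, the 48h median of genes with a shared peak minus that of all genes was -0.32. Libraries with the same replicate number deviated together weakly, with correlations of 0.061 to 0.27, all positive and highest between 48h and 72h. Whether they share any handling was not tested. With a replicate block, 2827 genes with a shared peak were lower and 1286 higher by 2-fold or more at 72h, and no call count moved by over 1.5 times. Of the named genes, those that reversed in 72h against bam were the 5 chosen for the smallest range over the libraries: ND-B14.7 (0.19 with DESeq2 size factors and 0.19 with the DESeq2 test), Arpc5 (0.20 and 0.19), and, with library size alone, bgcn (-0.14), pelo (-0.075) and mats (-0.11). The scaling alone differs between these fits and the reported one, except for the DESeq2 test, where the cause was not tested. Planned CAGE, sequence and motif alternatives were not run. Each condition has 1 peak list and 1 nucleosome map, so depth there limits comparison between conditions.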

Other observations

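Some long genes held many shared peaks. Counted over the whole gene and singled out after the counts were seen, the 6 genes with the most were Eip75B, an ecdysone-induced nuclear receptor gene on chromosome 3L (43 shared of 53 bam peaks over 114 kb), bun, a TSC22-domain gene on 2L (38 of 48 over 91.1 kb), the overlapping genes CG46467 and Glut4EF on 3R (36 of 47 each), heph, an RNA-binding protein gene on 3R (36 of 74 over 169 kb), and EcR, the ecdysone receptor gene on 2R (35 of 40 over 81.2 kb). Neighbouring shared peaks lay 1760 bp apart at the median, and 42.0% of gaps were under 1000 bp.

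Hox and Iroquois genes, a list chosen after the peak at caup was seen, carried shared peaks at 10 of 11 genes although most had little RNA. Of the 9 that were tested, lab, pb, Dfd, ara, caup, Ubx and mirr stayed under 8 CPM in all 8 libraries. The other 2 were higher: abd-A had 24.0 and 25.6 CPM at 72h, against 95.7 and 99.0 CPM in bam, and Abd-B had 9.14 and 8.33 CPM at 72h, against 26.2 and 25.7 CPM in bam.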
